A study of Mus musculus with 12 samples.

Results

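DNA methylation was described here at 10 genes that encode proteins of the cardiac sarcomere, the contractile unit of heart muscle: Myh6, Tnni3 and Myl2, Myh7, Tnni1 and Myl7, and Actc1, Tnnt2, Mybpc3 and Ttn. The members were the CpG sites of the deposited table that lay inside one of these genes or within 5 kb of one (mouse build GRCm38, also called mm10) and that had a value in all 12 samples. They numbered 130 of 312650 such sites, and 9 of the 10 genes had at least 1. Ttn held 51 sites, Mybpc3 28, Myl2 15, Myh6 10, Myl7 7, Tnnt2 7, Tnni3 6, Myh7 3 and Tnni1 3. Actc1, the cardiac actin of the thin filament, had 0 sites. Another 3 sites within 5 kb of Myh6 lay inside Myh7, its neighbour, and were counted with Myh7 only, except in the test of gene regions.

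In the sarcomere, myosin heavy chains with their light chains form the thick filament, actin with the troponins forms the thin filament, myosin binding protein C sits on the thick filament, and titin spans from Z disc to M band. The mouse ventricle switches isoforms around birth: Myh7 (beta myosin heavy chain) and Tnni1 (slow skeletal troponin I) give way to Myh6 (alpha myosin heavy chain) and Tnni3 (cardiac troponin I). Myl2 is the regulatory light chain of the ventricle and Myl7 that of the atrium. Methylation of CpG sites is commonly low at CpG-rich gene starts and high along gene bodies, and the bodies of contractile genes are known to carry less of it in heart muscle cells than in other cells of the heart.

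Reduced representation bisulfite sequencing (RRBS), in which DNA is cut at CCGG by MspI and unmethylated cytosines are converted before sequencing, was applied to the left ventricle of 12 wild-type FVB/N offspring aged 3 weeks. The mothers ate either high-fat (HFD) or regular (RD) food, starting at 6 weeks of age, and were mated after 8 weeks with males on RD. The HFD group had 3 female and 3 male offspring and the RD group 4 female and 2 male. Offspring of both groups were put on RD from weaning, the age of sampling. The number of mothers was not given in the labels, so offspring of a group may be littermates, and p-values measure the spread between these animals only. Library numbers ran from 2 to 8 in HFD and from 9 to 14 in RD, so library order and diet cannot be told apart. The tissue holds muscle, endothelial, connective tissue and blood cells, so a change in the mix of cells and a change of methylation within a cell type cannot be told apart.

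Values were percent methylation with no read counts, so the depth of each value is unknown. Samples had values at 385299 to 417081 sites, and their mean level over autosomal sites measured in all samples was 37.5 to 38.9%. The mean over the 130 member sites ranged from 65.4 to 68.5% in HFD and from 66.7 to 68.6% in RD, and the diets overlapped. On the X chromosome the mean level was 53.0 to 55.3% in the 7 females and 46.4 to 46.9% in the 5 males, so every library stood with its labelled sex.

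None of the promoter windows listed for these genes was read. RefSeq (GRCm38.p6) lists 14 windows from 250 bases before to 50 bases after a start of transcription for the 10 genes, and 0 of the 14 held a site of the table, with all values or fewer. Among all 31396 autosomal promoter windows of the same length, 15.8% held a site with values in all samples. The windows of the 10 genes had 1 to 8 CG dinucleotides, with a median of 5, against a median of 7 over all windows and of 22 over the windows that held a site. The share of windows with a site rose with CG number, from 0.863% at 0 to 4 and 8.35% at 5 to 9 to 35.0% at 20 or more. CCGG, searched on both strands, was in 6 of the 14 windows and in 53.5% of all. The windows of 4 genes are shown, 5′ to 3′ on the gene's own strand and with each CG in capitals, to show the sequence that held no measured site. Of these windows, Ttn and Actc1 are not below the median CG number of all windows. They are Myh6 (chr14:54966558-54966857, minus strand), Myl7 (chr11:5898733-5899032, minus strand), Ttn (chr2:76982498-76982797, minus strand) and Actc1 (chr2:114052826-114053125, minus strand).
Myh6: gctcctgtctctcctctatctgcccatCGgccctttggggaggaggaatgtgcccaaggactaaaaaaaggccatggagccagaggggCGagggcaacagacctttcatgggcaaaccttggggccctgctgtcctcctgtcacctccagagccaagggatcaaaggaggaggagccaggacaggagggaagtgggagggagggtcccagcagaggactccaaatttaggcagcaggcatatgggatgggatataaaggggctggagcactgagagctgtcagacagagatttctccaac
Myl7: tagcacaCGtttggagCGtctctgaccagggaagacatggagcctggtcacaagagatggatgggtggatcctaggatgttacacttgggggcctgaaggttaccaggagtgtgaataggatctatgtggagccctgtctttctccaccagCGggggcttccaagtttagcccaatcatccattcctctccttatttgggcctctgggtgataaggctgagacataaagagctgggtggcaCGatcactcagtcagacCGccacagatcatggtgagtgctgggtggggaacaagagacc
Ttn: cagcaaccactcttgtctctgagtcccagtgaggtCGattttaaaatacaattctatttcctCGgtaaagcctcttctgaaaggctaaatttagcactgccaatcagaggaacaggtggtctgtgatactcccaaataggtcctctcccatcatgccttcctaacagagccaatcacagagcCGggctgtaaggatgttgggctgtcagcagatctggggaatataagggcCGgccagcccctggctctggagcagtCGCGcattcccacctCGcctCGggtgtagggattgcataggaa
Actc1: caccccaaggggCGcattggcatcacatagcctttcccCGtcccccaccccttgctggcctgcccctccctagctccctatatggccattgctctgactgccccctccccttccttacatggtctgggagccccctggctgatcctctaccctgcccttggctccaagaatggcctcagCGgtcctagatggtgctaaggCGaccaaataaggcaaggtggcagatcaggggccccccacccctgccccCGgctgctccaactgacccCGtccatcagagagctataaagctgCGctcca

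The Myh6 window held 2 CpG sites and the Myl7 window 5, and neither held a cut site of MspI. The Ttn window held 8 CpG sites and 2 cut sites, and the Actc1 window 7 CpG sites and 1 cut site. TATAAA was found in 3 of the 14 windows, among them those of Myh6 and Actc1, and in 13.6% of all windows. The CArG box, the element bound by serum response factor, was found in 2 of the 14, those of Myl7 and Actc1, and in 1.57% of all. The MEF2 site was found in 2 of the 14, those of Mybpc3 and Ttn, and in 3.10% of all, and AGATAA in 2 of the 14 and in 11.2% of all. All motifs were searched on both strands, and a match is a description of the letters only.

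What was read of the genes was mostly methylated, at intermediate or high levels. Of the 130 sites, 13 (10%) had a mean below 20%, 65 (50%) a mean of 20 to 80% and 52 (40%) a mean above 80%. Over all 306534 autosomal sites the shares were 52.4, 19.8 and 27.8%. The median site level was 74.2% at the members and 12.5% over all autosomal sites. Of the member sites, 115 lay inside the genes and 24 lay inside another gene as well or instead. By place, the 9 member sites within 1 kb of an annotated start had a median of 18.4%, against 1.32% over 94314 such sites of protein-coding genes. Among the 9 were the Tnni1 sites, which lie away from the promoter windows of that gene. The 10 sites 1 to 5 kb before a start, all inside Dnaaf3, Lad1 or Spi1, had a median of 78.8% against 8.84%. The 11 sites from 1 to 5 kb past a start had a median of 41.7% against 3.79%. The 17 sites from 5 to 10 kb had a median of 64.3% against 58.5%, and the 24 sites from 10 to 20 kb one of 72.2% against 74.2%. The 17 sites from 20 to 50 kb had a median of 72.4% against 79.3%, and the 6 sites from 50 to 180 kb one of 60.1% against 81.5%. The 35 sites past 180 kb, all in Ttn, had a median of 92.0% against 81.4%.

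**Figure D1:**
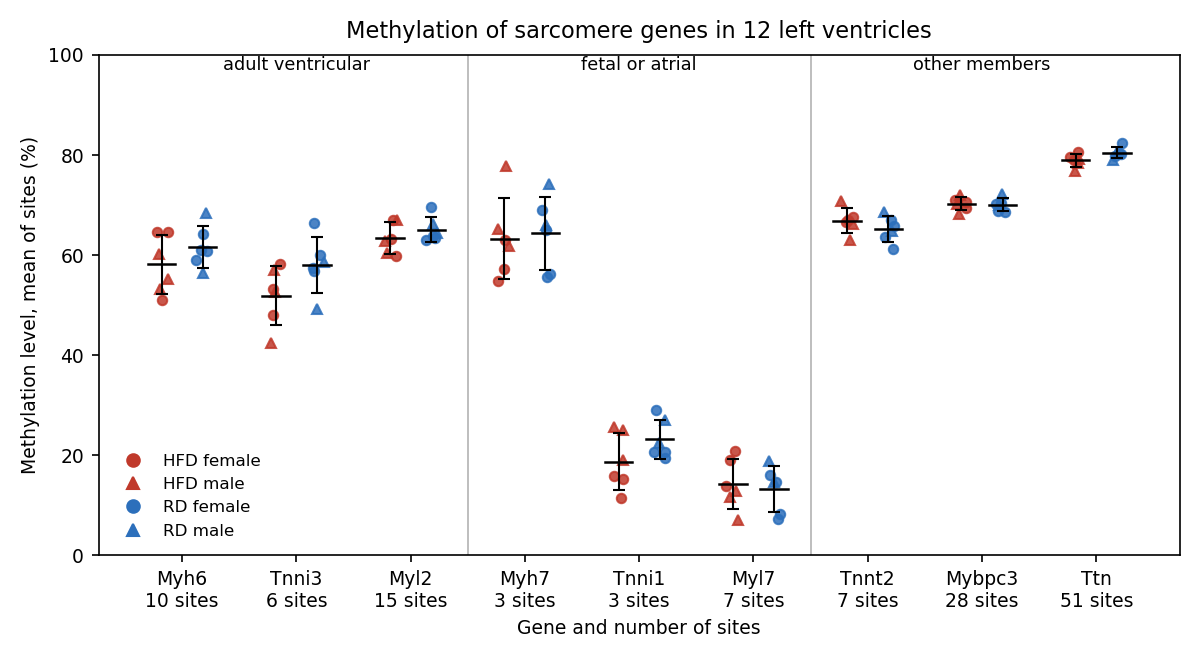
Methylation level (%, mean over the sites nearest to each gene) of 9 sarcomere genes in each of 12 left ventricles, by maternal diet (colour) and sex (symbol), with the mean and SD of the 6 samples of each diet. Tnni1 and Myl7 reach 29.1% at most, the other genes are at 42.4% or more in every sample, and the diets overlap at all 9 genes.

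Among the adult ventricular genes, Myh6 had 10 sites on chromosome 14, of which 8 (54942426 to 54942687) lay at the 3′ end of the gene, where it overlaps Cmtm5. Their mean level was 69.2% ± 5.67 (SD, n = 12). The 1 site that lay in Myh6 alone (54957910, 10107 bp from the start) was at 12.99% ± 9.30. In single samples that site ranged from 0% in HFD male 4 to 28.6% in RD male 1. The last site (54937480) lay past the end of Myh6 in Cmtm5 and was at 32.2% ± 12.0. Myh6 as a whole was at 59.9% ± 5.16.

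Myl2 had 15 sites on chromosome 5, all inside the gene and in no other. The 7 sites at 122094704 to 122094914 were at 54.4% ± 4.13 and the 8 sites at 122098329 to 122098535 at 72.8% ± 3.55. The 2 clusters did not overlap over the samples, with 59.4% the highest of the nearer to the start and 66.2% the lowest of the farther. Tnni3 had 6 sites on chromosome 7, of which 5 (4523388 to 4523984) lay at −1266 to −670 bp from its start, inside Dnaaf3, with a mean of 60.4% ± 7.84. The 1 site inside Tnni3 (4520745) was at 28.1% ± 3.61. Single sites before the start ranged from 20.5% at 4523405 to 81.0% at 4523975.

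Of the fetal or atrial genes, Tnni1 had 3 sites on chromosome 1 (135783002 to 135783035), at −31 to 2 bp from its annotated start. They had a mean of 21.0% ± 5.21, and single site means were 17.0, 27.4 and 18.4%. The RefSeq promoter windows of Tnni1 lie farther along the gene (chr1:135799171-135799470 and chr1:135799261-135799560), so these sites belong to the outer edge of the gene model. Myl7 had 7 sites on chromosome 11 (5897625 to 5898125), 657 to 1157 bp into the gene, with a mean of 13.8% ± 4.60. Its site means ranged from 4.98 to 32.0%, the highest at the site nearest to the start. Myh7 had 3 sites on chromosome 14 (54971093 to 54971157) near its 3′ end, which also lie in Mhrt, a long noncoding RNA gene of the same locus. They were at 63.8% ± 7.35, with 54.8% in HFD female 2 the lowest sample and 77.8% in HFD male 3 the highest.

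Of the genes used in both fetal and adult heart muscle, the 3 with sites had the 3 highest means. That of Tnnt2 (66.0%) rests in part on sites in another gene. Tnnt2, cardiac troponin T, had 3 sites before its start that lie in Lad1 (chromosome 1, 135831880 to 135832564), at 89.7% ± 2.14, and 4 sites near its 3′ end (135851688 to 135851715), at 48.3% ± 4.28. Within the latter stretch the site means were 86.6, 14.98, 57.5 and 34.3% in the order of position. Mybpc3, cardiac myosin binding protein C, had 28 sites on chromosome 2. The 4 sites before its start, inside Spi1 (91113372 to 91113431), were at 66.1% ± 3.72. Inside the gene the level was 54.3% ± 3.06 at 91123761 to 91125289, 73.5% ± 3.75 at 91129588 to 91129658, 82.0% ± 5.11 at 91131266 to 91131316 and 81.9% ± 2.66 at 91134483 to 91134817.

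Ttn, which encodes titin, was covered by 51 sites in 15 clusters over its 278.6 kb on chromosome 2. The 4 sites 13547 to 13633 bp from the start (76968924 to 76969010) were at 15.5% ± 5.08. The 12 sites 20 to 180 kb from the start were at 69.5% ± 2.35. Cluster means within this stretch ran 80.6, 65.5, 71.7, 49.5 and 42.6% away from the start, so the level did not rise along it. The 35 sites farther on were at 90.5% ± 1.16. In every sample the 3 stretches kept this order, with 30.0% the highest value of the first, 64.3 to 72.5% the range of the second and 88.6 to 92.0% that of the last. The limits of the stretches fall where the level changes, so this order is a description only. Over all protein-coding genes, the quartile range of sites 10 to 20 kb from a start was 18.8 to 90.9%, and the median of sites over 180 kb from a start was 81.4%.

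**Figure D2:**
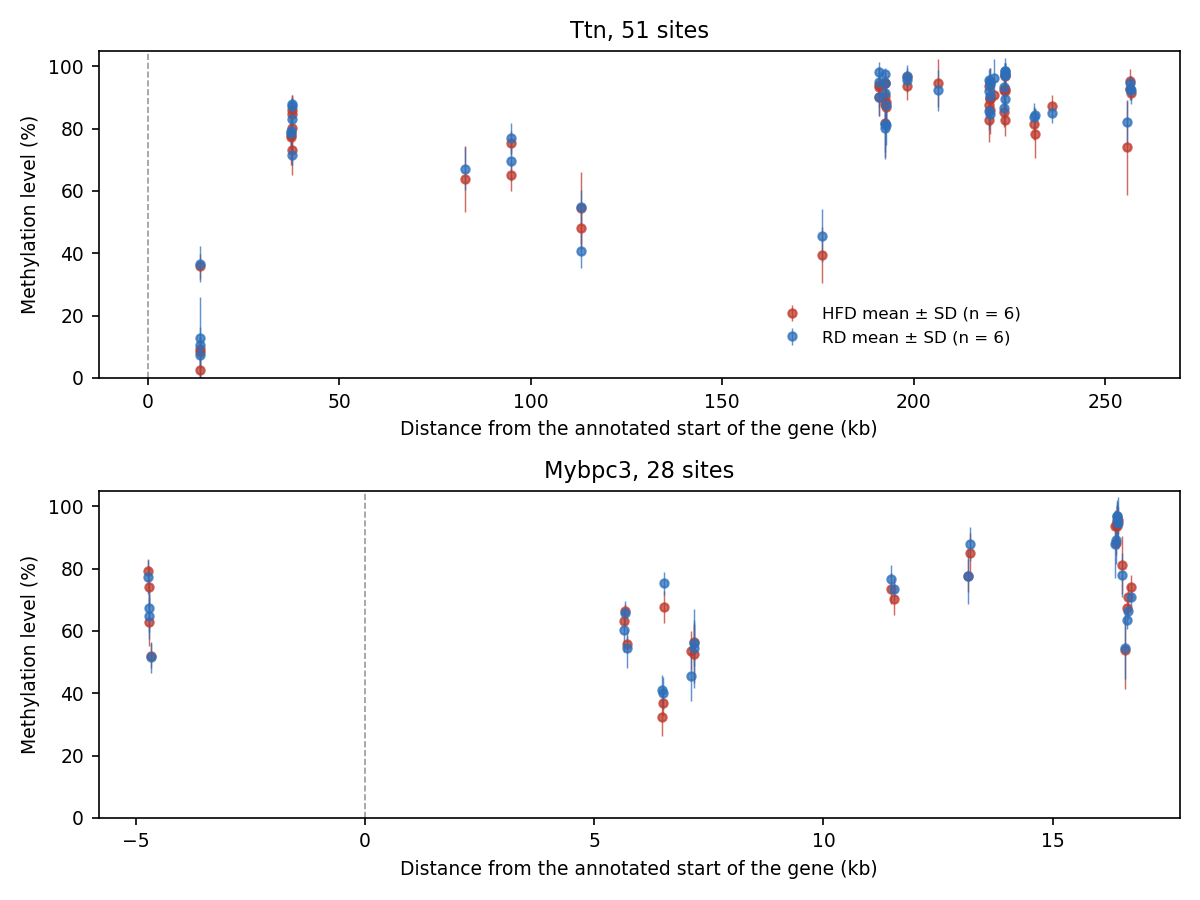
Methylation level (%) of each site of Ttn and Mybpc3 against the distance from the annotated start of the gene (kb), as mean and SD of the 6 HFD and the 6 RD samples. Along Ttn the level is 15.5% at the first 4 sites, 13547 to 13633 bp from the start, and 80.6% in the next cluster. It is 42.6% at the last site before 180 kb and 90.5% on average past it. Inside Mybpc3 the level goes from 54.3% to 81.9%.

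Ordered by level, the genes ran Ttn 79.7%, Mybpc3 70.2%, Tnnt2 66.0%, Myl2 64.2%, Myh7 63.8%, Myh6 59.9%, Tnni3 54.98%, Tnni1 21.0% and Myl7 13.8%. Ranges over the 12 samples did not overlap between Ttn and Mybpc3 (76.7 to 82.4% against 68.3 to 72.3%) or between Tnni3 and Tnni1 (42.4 to 66.3% against 11.5 to 29.1%). All other neighbours in this order overlapped. The place of Tnnt2 counts its 3 sites in Lad1, at 89.7%, while its 4 sites inside the gene were at 48.3%. The step from Tnni3 to Tnni1 was 34.0 points and the next widest, from Ttn to Mybpc3, 9.52 points. The Tnni1 level rests on 3 neighbouring sites: at its 3 further sites, each with values in 10 samples, the HFD means were 76.7, 55.4 and 82.1% and the RD means 87.8, 55.1 and 95.9%. Among all 13866 gene regions tested, Tnni1 and Myl7 stood at percentiles 45.9 and 37.2 of the level, and the other 7 genes at percentiles 74.4 to 89.7.

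The adult ventricular genes, as the mean of Myh6, Tnni3 and Myl2, were at 54.7 to 63.5% in the 12 samples, with a median of 59.8%. The fetal or atrial genes, as the mean of Myh7, Tnni1 and Myl7, were at 28.1 to 37.3%, with a median of 32.3%. The difference was 26.9 ± 4.65 points (SD, n = 12), the adult genes being higher in 12 of 12 samples. With sites valued in at least 8 samples it was 14.4 points. It rested on Tnni1 and Myl7: Myh6, Tnni3 and Myl2 differed from Myh7 by −3.93 ± 8.95, −8.86 ± 10.5 and 0.403 ± 8.19 points. Against Tnni1 the same 3 genes were higher by 38.9, 34.0 and 43.3 points, and against Myl7 by 46.1, 41.2 and 50.5 points, in 12 of 12 samples each. No test was made over the 3 genes of a class, which are not replicates.

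The genes were read at different places along their length, and the part of position in the difference was not tested. The Tnni1 and Myl7 sites lie at −31 to 1157 bp from an annotated start. For Tnni1 this start is the outer edge of the gene model, away from its promoter windows. The Tnni3 sites lie at −1266 to 1973 bp and the Myl2 sites at 1980 to 5811 bp, whereas 8 of the 10 Myh6 sites and the 3 Myh7 sites lie near a 3′ end. Sites near a start had low medians over all genes, as given above, and sites along the 3′-most 10% of a gene had a median of 82.6% over all genes and of 69.1% at the 23 such member sites. With sites inside another gene left out, which removes Myh7 and leaves 1 site each in Myh6 and Tnni3, the adult genes were at 35.1% ± 3.69 and the other class at 17.4% ± 3.02, a difference of 17.7 points. Myh6 was then at 12.99% (1 site) and Tnni3 at 28.1% (1 site), against 21.0% for Tnni1 and 13.8% for Myl7, so Myh6 was no longer above either, and Myl2, at 64.2%, was the 1 adult gene far above both.

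**Figure D3:**
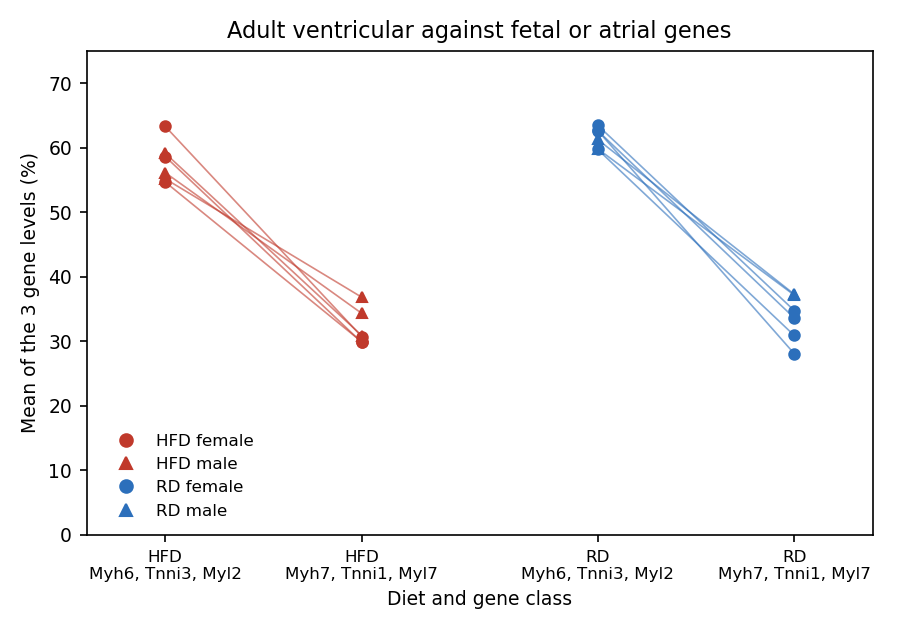
Mean methylation level (%) of the 3 adult ventricular genes and of the 3 fetal or atrial genes in each sample, joined by a line, by maternal diet and sex. All 12 lines fall from the adult to the fetal or atrial genes, by 18.4 to 34.6 points.

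By diet, the adult genes ran from 54.7 to 63.3% in HFD with a median of 57.4%, and from 59.7 to 63.5% in RD with a median of 61.9%. The fetal or atrial genes ran from 29.8 to 36.8% in HFD with a median of 30.8%, and from 28.1 to 37.3% in RD with a median of 34.2%. In both classes the diets overlapped. HFD minus RD was −3.77 points for the adult and −1.56 points for the fetal or atrial genes. The adult minus fetal difference was 25.8 ± 5.16 points in HFD and 28.0 ± 4.24 in RD (n = 6 each), so the change of −2.20 points between diets was smaller than the spread between samples of a diet. With 1 sample left out in turn it ran from −3.57 to −0.724 points.

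No sarcomere site, 500 bp tile or gene region passed the threshold for diet. At sites, limma called 0 of the 120 tested member sites at an adjusted p under 0.05, against a background of 0.0102% of 157524 sites. The smallest adjusted p was 0.644. At an unadjusted p under 0.05 there were 7 member sites (5.83%), against 6.53% of all sites. All 7 were lower in HFD, and 3.66% of all sites passed in that direction. Of the 120 sites, 76 (63.3%) were lower in HFD, against 52.9% of all sites, and the median difference was −1.07 points against −0.259. Diets overlapped at every member site, while they did not overlap at 0.482% of all sites. Many of these sites lie within 1000 bp of each other, in 32 clusters, and all come from the same animals.

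The site with the smallest p lay at the outer edge of the Tnni1 gene model (135783008), away from the promoter windows of that gene. It was at 15.2 to 36.7% in HFD with a median of 20.7%, and at 23.8 to 39.4% in RD with a median of 30.4%. The 3 HFD females and HFD male 4 lay below all RD samples. The means were 23.3% ± 8.64 and 31.5% ± 5.85, and limma gave an adjusted p = 0.644.

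In Mybpc3, the site at 91124593 was at 23.3 to 39.5% in HFD with a median of 33.2%, and at 35.9 to 48.0% in RD with a median of 38.7%. Diets overlapped between 35.9 and 39.5% (limma adjusted p = 0.682). The 500 bp tile that holds it (91124593 to 91124643, 3 sites) had the smallest p of the 21 member tiles. It was at 38.4 to 49.5% in HFD with a median of 47.8%, and at 48.1 to 58.2% in RD with a median of 51.1%. The means were 45.5% ± 4.66 and 52.0% ± 3.70, and limma gave an adjusted p = 0.434. All samples below 48.1% were HFD, and the 2 ranges overlapped between 48.1 and 49.5%. The next tile (91125228 to 91125289) was at 54.2% ± 6.19 in HFD and 52.0% ± 7.70 in RD, and the gene as a whole differed by 0.189 points.

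In Ttn, the site at 76761658 was at 88.9 to 92.9% in HFD with a median of 90.8%, and at 86.7 to 100% in RD with a median of 100% (limma adjusted p = 0.659). The tile at 76758740 to 76758891 was at 91.5% ± 2.24 in HFD and 94.3% ± 1.84 in RD (by limma, adjusted p = 0.627). Its lowest RD value, 90.7% in RD male 2, lay within the HFD range of 88.7 to 95.1%. Of the 51 Ttn sites, 38 were lower and 13 higher in HFD. Among 25 further Ttn sites with values in 8 to 11 samples, 8 were lower and 16 higher in HFD, and their median difference was 2.64 points.

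In Myl2, the site at 122094735 was at 45.1 to 60.2% in HFD with a median of 49.8%, and at 55.5 to 67.0% in RD with a median of 61.7% (limma adjusted p = 0.754). In Myh6, the site at 54942454 was at 64.6% ± 10.5 in HFD and 74.4% ± 8.81 in RD (by limma, adjusted p = 0.828). In Tnni3, the site at 4523405, before the start, was at 16.5% ± 8.67 in HFD and 24.6% ± 11.8 in RD (by limma, adjusted p = 0.867). At both sites the diets overlapped, and the difference was within the larger of the 2 SDs.

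At the other 3 genes, the site of smallest p for diet was 54971093 in Myh7, at 67.9% ± 11.6 in HFD and 72.2% ± 9.71 in RD. The difference of −4.37 points ran from −7.57 to −0.132 with 1 sample left out in turn. In Myl7 it was 5897976, at 8.79% ± 1.61 and 11.4% ± 4.97. In Tnnt2 it was 135851702, at 19.01% ± 7.27 in HFD and 10.96% ± 4.34 in RD, the only one of the 9 that was higher in HFD. Their adjusted p were 0.913, 0.888 and 0.777 in limma. Among the 21 member tiles, 3 had an unadjusted p under 0.05, against 7.81% of all 23776 tiles, and 0 were called, against 0.0294%. The 3 were the Mybpc3 and Ttn tiles named here and the Tnni1 tile (135783002 to 135783035, the same 3 sites as its gene region, limma adjusted p = 0.571), all lower in HFD, a direction in which 4.64% of all tiles passed. Of the 21 tiles 12 were lower in HFD, against 53.3% of all tiles, and 9 higher.

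Over whole gene regions, each the mean of all sites in the gene and its 5 kb flanks, 0 of 9 sarcomere genes were called for diet, against 0.0938% of 13866 regions. At an unadjusted p under 0.05 there was 1, Tnni1, against 7.34% of all, and it was lower in HFD, as were 3.65% of all. In 6 genes the HFD mean was lower, against 49.4% of all regions, and in 3 higher, and the median difference was −1.48 points, against 0.0116 over all regions. These directions were not stable: with sites valued in at least 8 samples the difference turned to 0.183 points at Myh6, 0.0431 at Ttn and −0.519 at Myl7. That of Mybpc3 turned to −0.0973 with no flank, and leaving out single samples also turned Myh7, Myl7 and Mybpc3. Diets overlapped in all 9, while they did not in 0.671% of all regions.

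Tnni1 was at 11.5 to 25.6% in HFD with a median of 17.4%, and at 19.4 to 29.1% in RD with a median of 21.6%. The means were 18.7% ± 5.67 and 23.2% ± 3.92 (limma adjusted p = 0.553). Tnni3 differed by −6.17 points in the means, and by −5.47 points with sex taken into account, where Tnni1 differed by −5.49. The Tnni3 means were 51.9% ± 5.90 in HFD and 58.1% ± 5.55 in RD (by limma, adjusted p = 0.752). Its samples ran from 42.4 to 58.3% in HFD with a median of 52.9%, and from 49.2 to 66.3% in RD with a median of 58.0%. At both genes the diets overlapped.

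Ttn, the gene with the most sites, was at 76.7 to 80.7% in HFD with a median of 79.1%, and at 79.0 to 82.4% in RD with a median of 80.4%. The difference was −1.48 points (limma adjusted p = 0.745), with a 95% interval of the sex-adjusted difference of −2.65 to 0.133 points. The interval was −1.61 to 1.73 points for Mybpc3 and −5.23 to 1.83 points for Myl2. It was −8.31 to 2.13 points for Myh6, −12.0 to 1.05 for Tnni3 and −9.88 to 4.59 for Myh7. It was −10.1 to −0.850 points for Tnni1, −4.70 to 7.01 for Myl7 and −1.63 to 4.71 for Tnnt2. The intervals were narrowest at Ttn and Mybpc3, the genes with the most sites.

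**Figure D4:**
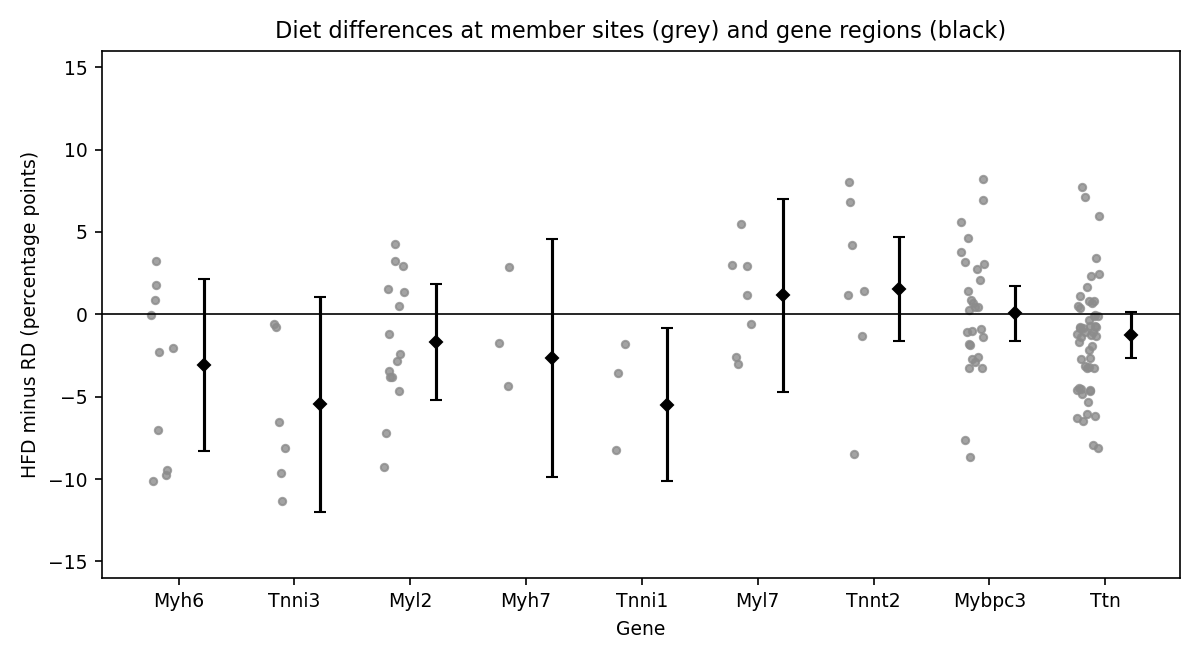
HFD minus RD difference in methylation (percentage points) at single sites (grey points, difference of the means) and over gene regions (black, sex-adjusted difference with its 95% limma interval on untransformed percentages) of 9 sarcomere genes. The interval leaves out 0 at Tnni1 only, at −10.1 to −0.850 points before any adjustment over genes.

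Within females, Tnni1 was at 11.5 to 15.8% in the 3 HFD and at 19.4 to 29.1% in the 4 RD offspring. It was the 1 member whose diets did not overlap in females, where 6.66% of all regions did not. The difference was −8.28 points (limma adjusted p = 0.763), and 0 members were called, against 0.00721% of all regions. Tnni1 and Myl7 had an unadjusted p under 0.05 in females, against 4.89% of all regions, and in males no member did, against 7.59%. Within males Tnni1 overlapped, with 19.05 to 25.6% in HFD and 22.4 to 27.0% in RD. Myl7 was higher in HFD among females (13.9 to 20.8% against 7.35 to 16.1%) and lower among males (7.02 to 12.8% against 14.7 to 18.8%). It was the 1 member whose diets did not overlap in males, where 22.3% of all regions did not. The difference between the sexes was 12.6 points (limma interaction, adjusted p = 0.955), and it was the 1 member with an unadjusted p under 0.05 in this test, against 4.96% of all regions. The groups of males are 3 and 2 samples, and no member was called within males (background 0.0505%) or in the interaction (background 0%).

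Between the sexes, Myh7 was at 54.8 to 69.0% in females and 61.9 to 77.8% in males, and Tnni1 at 11.5 to 29.1% and 19.05 to 27.0%. Female minus male was −8.90 points in Myh7 and −4.94 points in Tnni1, with an adjusted p of 0.832 for both in limma. Neither was called, against 0% of all regions. Both had an unadjusted p under 0.05, as did 5.72% of all.

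The rest of the sarcomere gave no call either. Of 39 further genes of the thin filament, thick filament and M band, and Z disc, 28 had at least 3 sites and 0 were called for diet, against 0.0938% of all regions. The median difference over the 28 was 0.0614 points. In the thin filament list Nebl, the nebulette gene, was at 21.3% ± 1.15 in HFD and 19.4% ± 0.862 in RD (by limma, adjusted p = 0.553), the 1 gene of the 28 (3.57%) with an unadjusted p under 0.05, a share below the 7.34% of all regions. Tnni2, fast skeletal troponin I, was at 75.7% ± 2.18 and 78.3% ± 3.32. In the thick filament and M band list, Trim63 was at 88.0% ± 2.49 and 88.9% ± 2.43. In the Z disc list, Fhl2 was at 4.35% ± 2.03 and 3.09% ± 1.01 and Tcap, telethonin, at 82.0% ± 1.14 and 81.4% ± 0.842. Mean levels of the 28 genes ran from 1.199 to 94.5%, so low and high levels both occurred among sarcomere genes. Their median level was 28.3%, against 63.8% over the 9 member regions and 24.7% over all regions.

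Marker genes of the cells in the ventricle were read in the same way. Of 7 measured cardiomyocyte markers 6 had a lower mean in HFD and 1 a higher one, against 49.4% lower over all regions, and the median difference was −0.732 points. None of the 7 was called, and 1, Hspb7, had an unadjusted p under 0.05, against 7.34% of all regions. Hspb7 was at 42.7% ± 2.69 in HFD and 46.6% ± 3.61 in RD and Mb, myoglobin, at 43.9% ± 5.37 and 48.1% ± 4.31, with adjusted p of 0.576 and 0.776 in limma. Of 9 measured endothelial markers, 8 had a lower mean in HFD and 1 a higher one, with a median difference of −4.69 points, and 2 were called, both lower in HFD, against 0.0938% of all regions. Egfl7 was at 15.9% ± 1.43 in HFD and 26.5% ± 1.72 in RD, and Pecam1 at 39.4% ± 2.31 and 49.2% ± 2.76. Their adjusted p in limma were 0.00124 and 0.0448, and 4 of the 9 had an unadjusted p under 0.05, all lower in HFD, against 3.65% of all regions in that direction. Of 6 measured blood markers 0 were called, and 2 had an unadjusted p under 0.05, against 7.34% of all regions: Itgam was at 56.1% ± 1.89 in HFD and 60.3% ± 2.31 in RD, and Hba-a1, an alpha globin, at 37.2% ± 3.03 and 32.8% ± 2.36. Of 4 fibroblast markers 0 were called, with Mfap5 at 31.6% ± 4.79 and 29.5% ± 2.51 and Col1a1 at 59.1% ± 3.05 and 60.1% ± 2.99. Of 7 smooth muscle or pericyte markers 0 were called, and 4 had a lower mean in HFD and 3 a higher one. Pdgfrb was at 51.6% ± 2.29 in HFD and 53.4% ± 1.58 in RD, and Acta2 at 85.5% ± 2.59 and 87.0% ± 1.83. The part of these endothelial genes' change in the sarcomere genes' values was not tested.

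Among the 3 gene regions whose level followed that of Ttn most closely over the 12 samples, of 9791 regions with at least 10 sites, were Jph2 (r = 0.869) and Rhoq (r = 0.845). Jph2 encodes junctophilin, which ties the T tubule to the sarcoplasmic reticulum in muscle. Levels ranged from 35.1 to 44.6% in Jph2 and from 30.9 to 38.5% in Rhoq. The correlations are Pearson's r over 12 samples, with both regions of a pair read from the same libraries, and these regions were picked for their high r.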

How the data were processed

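Percent methylation per CpG position was deposited by the authors as 1 table with a column per sample, and it was used as deposited. Per the submitters' processing notes, FastQC, Trim Galore, Bismark 0.19 and limma were used with build mm10, with no settings given; a coverage minimum is not given in the sources used here. The members and all gene lists were chosen with earlier results of these data known, and the endothelial list is therefore no independent evidence.

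Positions were matched to RefSeq gene spans of GRCm38.p6, and 99.98% of 45522 table positions in RefSeq promoter windows lay on a CG. Exon and intron positions were not used here. A site near 2 members was given to the nearest. Rates (as fractions) were turned into log2((rate + 0.05)/(1 − rate + 0.05)) and fitted with limma 3.58.1 (R 4.3.3), with diet and sex as terms. The features were autosomal sites with all 12 values and a mean of 5 to 95%, 500 bp tiles of at least 3 such sites, and gene regions (gene and 5 kb flanks, at least 3 sites, no limit on the mean). Tests were two-sided, with Benjamini-Hochberg adjustment over all features of a kind and a threshold of 0.05. Models with 1 mean per group gave the tests within a sex and the interaction. The fits were tested on simulated data.

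All members are named, and of their sites and tiles the one of smallest p for diet. Of other lists, genes past the threshold are named, otherwise the 2 of smallest p, and for Ttn the 3 gene regions of highest Pearson r over the samples. Promoter windows were to be printed where a site lay in them; since none did, the 4 shown were picked after their values were seen. For 2 genes that these rules name, values are not reported here.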

Additional observations from a re-analysis of the deposited data

Results flagged for a closer look

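In 64 groups of 4 to 6 samples, 4 values stood farther from the others of their group than Dixon's 95% limit, where chance gives about 1 in 20 groups (3.2). The 4 Ttn sites nearest to its start (76968924 to 76969010) were at 30.0% in RD female 1, against 12.7 to 16.2% in the other RD samples. The Ttn sites at 76758740 to 76758891 were at 90.7% in RD male 2, against 94.5 to 95.7% in the other RD samples. The Ttn sites at 76725908 to 76726827 were at 80.2% in HFD male 4, against 87.7 to 92.1% in the other HFD samples. HFD male 4 also had values at only 385299 sites, against 406225 to 417081 in the other HFD samples.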

How the results depend on the processing

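The number of members past the threshold was 0 for diet, for diet within each sex, for the interaction and for sex under every alternative run. Between the diets, samples of the same replicate number were not more alike than others. Correlations were −0.03 to 0.01 for the 4 same-numbered pairs and −0.03 to 0.04 for the 14 other pairs. With a replicate block the count stayed at 0 and no direction changed. Pairs between diets cannot show whether offspring of the same diet were littermates. The adult minus fetal or atrial difference of 26.9 points was 34.1 as a mean over sites, 19.8 with no flank, 17.7 without sites inside another gene and 14.4 with sites valued in at least 8 samples. It was 26.2 to 27.6 points with each sample left out in turn. With values in at least 8 samples, the diet difference turned to 0.183 points at Myh6, −0.519 at Myl7 and 0.0431 at Ttn. That of Mybpc3 turned to −0.0973 points with a flank of 2 kb, with no flank and without sites inside another gene. Leaving out 1 sample moved the diet difference between −3.98 and 0.8996 points at the Myh7 region and tile, between −0.404 and 2.34 at the Myl7 region, between −0.471 and 2.59 at its tile, between −0.353 and 2.49 at the Tnnt2 tile and between −0.176 and 0.632 at the Mybpc3 region. The causes were not tested. The unknown depth and the few sites per gene limit all values.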

Other observations

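A further 44 sites in or near the sarcomere genes had values in 8 to 11 samples. They entered none of the main tests, only the alternative run with sites valued in at least 8 samples. Of these, 28 were higher in HFD, 15 lower and 1 equal, with a median difference of 1.56 points. Ttn held 25 of them, 16 higher and 8 lower in HFD, with differences from −10.6 to 18.8 points. The widest lay at 76897197, where the 4 measured HFD samples were at 63.6, 85.7, 79.0 and 100% and the 6 RD samples at 52.9 to 75%. HFD male 3 and HFD male 4 had no value there. HFD male 4 lacked a value at 15 of the 25 Ttn sites and at 18 of the 44, and HFD male 3 at 6 and 18. These differences are given without a test.

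Tnni1 and Myl7 also had such sites. At 135797079 in Tnni1, the mean was 82.1% in 6 HFD and 95.9% in 4 RD samples, and at 135783592 it was 76.7% in 4 HFD and 87.8% in 6 RD samples. At the remaining site, 135797053, it was 55.4% in 6 HFD and 55.1% in 4 RD samples. These levels lie above the 21.0% at the outer edge of the Tnni1 gene model, so the gene held both low and high sites. At 5898160 in Myl7, close to its start, the mean was 28.4% in 5 HFD and 34.8% in 6 RD samples. The other 4 such Myl7 sites had values in 4 samples of each diet, with differences of −7.26 to 2.24 points, and 3 of the 5 were higher in HFD.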
